A study of Mus musculus with 3 samples.

Results

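Tubulin genes and the genes of the main neuronal microtubule-associated proteins (MAPs) were followed in RNA captured from tagged ribosomes of the mouse cortex-amygdala transition zone. The set holds 10 of the 32531 genes listed: the alpha tubulin Tuba1a, the beta tubulins Tubb2a, Tubb3, Tubb4a and Tubb5, the MAP genes Map1a, Map1b, Map2 and Mapt, and the stathmin Stmn2. They were chosen by symbol, and all 10 were found in the count files. The mice were adult, untreated controls of the transgenic line OI82, which carries EGFP fused to ribosomal protein L10a (Rpl10a) under Lypd1 regulatory DNA. The tissue was dissected, and polysomes carrying the tag were pulled down with antibodies to EGFP. There was 1 group, with 3 immunopurified libraries from 3 mice, called replicates 1, 2 and 3. Nothing states whether a library pooled animals, and every spread below is one between libraries. Unpurified tissue RNA was not analysed here, and the values are therefore not enrichments over tissue.

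Microtubules are hollow polymers of alpha and beta tubulin that carry transport in axons and dendrites and hold neurites in shape. Mammals have several genes for each tubulin. Their products, called isotypes, are nearly alike in the body of the protein and differ most in the carboxy-terminal tail, which lies on the outer surface of the microtubule and is where many MAPs, motors and modifying enzymes act. MAP2 marks dendrites and cell bodies, tau (the product of Mapt) is mostly axonal in mature neurons, MAP1B is prominent in growing neurites, MAP1A in mature ones, and stathmins bind free tubulin and favour disassembly.

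How far the isotypes can be told apart in these counts depends on their sequence, so the ends of the coding sequences of 4 beta tubulins of the set and of Tubb2b, the closest relative of Tubb2a, are shown. Each is the last 72 coding bases before the stop codon, which encode the variable tail, 5′ to 3′ on the transcript (GENCODE M21, GRCm38). Capitals mark bases that lie in no run of 10 bases shared with another of the 5 sequences.
Tubb2a: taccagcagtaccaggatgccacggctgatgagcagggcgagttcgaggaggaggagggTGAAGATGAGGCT
Tubb2b: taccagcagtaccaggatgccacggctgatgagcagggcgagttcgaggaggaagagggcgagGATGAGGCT
Tubb3: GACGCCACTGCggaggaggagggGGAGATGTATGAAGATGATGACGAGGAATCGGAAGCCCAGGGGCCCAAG
Tubb4a: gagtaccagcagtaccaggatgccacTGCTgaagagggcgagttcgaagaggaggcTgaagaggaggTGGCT
Tubb5: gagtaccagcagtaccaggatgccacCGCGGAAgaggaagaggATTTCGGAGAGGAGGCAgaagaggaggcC
The Tubb3 end stands apart from the others, with 60 of its 72 bases in capitals, against 25 for Tubb5, 13 for Tubb2a, 10 for Tubb4a and 9 for Tubb2b. Capitals do not count differing bases. The 9 capitals of Tubb2b match the last 9 bases of Tubb2a, a run shorter than the 10 bases required. The bases of Tubb2b that differ from Tubb2a are in lower case. These stretches lie at chr13:34074471-34074542 for Tubb2a, chr13:34127474-34127545 for Tubb2b, chr17:57080693-57080764 for Tubb4a and chr17:35834985-35835056 for Tubb5, all on the minus strand, and at chr8:123421608-123421679 on the plus strand for Tubb3.

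Over the whole coding sequence, Tubb2a and Tubb2b were 96.5% identical, and Tubb2a was 83.5% identical to Tubb3, 84.1% to Tubb4a and 84.6% to Tubb5. Among alpha tubulins, Tuba1a was 98.3% identical to Tuba1b and 97.1% to Tuba1c, and 84.7% to Tuba4a. Counts of reads that align to more than 1 place were not assigned to genes, so such likeness lowers a gene's count. Of all stretches of 50 bases in its principal transcript, 75.5% of those of Tuba1a also occurred in an annotated transcript of another gene, as did 49.6% of those of Tubb2a. The share was 0.184% for Tubb4a, 0.115% for Tubb5, 1.89% for Map1a and 0.274% for Map2, and it was 0 for Tubb3, Map1b, Mapt and Stmn2. With stretches of 100 bases the share was still 65.8% for Tuba1a and 36.9% for Tubb2a. The levels of Tuba1a and Tubb2a, and of Tuba1b and Tubb2b, are therefore uncertain, since the read length is not given in the sources used here.

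The starts of the coding sequences carry the other stretch for which tubulin messages are known. The first 4 codons encode the nascent peptide that is read in tubulin autoregulation, the decay of tubulin messenger RNA on ribosomes when free tubulin is in excess. The first 24 coding bases are printed with these 4 codons in capitals.
Tuba1a: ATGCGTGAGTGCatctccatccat
Tubb2a: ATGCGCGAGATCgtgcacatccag
Tubb3: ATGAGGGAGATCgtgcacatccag
Tubb4a: ATGCGGGAAATCgtgcacctgcaa
Tubb5: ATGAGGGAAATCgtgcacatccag
Within the beta tubulins these codons differ in spelling from gene to gene. Ttc5, which encodes the factor that recognises this peptide, measured 50.7, 99.7 and 104 CPM in replicates 1, 2 and 3 and did not pass the test of variation described below (edgeR goodness of fit, adjusted p = 0.949).

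Levels are CPM, in which each count is divided by the library's assigned total and multiplied by 1000000. The libraries held 18526251, 24690301 and 8668527 assigned counts, so a count of 0 allows up to 0.122 to 0.346 CPM (3 counts, counting error only). Replicate 3 stood apart before any result is read: it had the least depth. The 5 abundant transcripts Rn45s, Malat1, Meg3, Snhg11 and Lars2 took 21.1% of its counts, against 14.9% in replicate 1 and 13.0% in replicate 2. Of these, Malat1, Meg3 and Snhg11 were highest in replicate 3, while Rn45s and Lars2 were lowest there. The 12 neuronal markers all reached 1 CPM in every library, the level called detected here. Their summed levels were 11952, 17937 and 9433 CPM in replicates 1, 2 and 3. Snap25 made the largest part of each sum, with 7606, 13126.5 and 6317 CPM, so the sum does not stand for each neuronal marker. All 12 astrocyte and 11 of 12 oligodendrocyte markers were also detected, with summed levels of 1616 to 2633 and 258 to 449 CPM, and both sums were highest in replicate 1. Microglial markers were detected for 6 of 12 genes, endothelial markers for 8 of 10 and markers of oligodendrocyte precursors for 7 of 7, with sums of at most 65.3, 109.8 and 265 CPM. No marker of these lists was at 0 in all libraries. Several tubulins, Tubb4a and Tuba1a among them, are also made by glia, and the part of glial RNA in the values below was not tested. In bulk RNA of this kind, fewer cells of a type and less RNA per cell cannot be told apart.

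All 10 genes were detected, as were 39.3% of the genes listed. Their median level was 755, 657 and 396 CPM in replicates 1, 2 and 3, or 602 ± 186 CPM (SD, n = 3), where the median of the 15336 genes tested, those averaging at least 1 CPM, was 17.7 ± 1.47 CPM. Together they took 1.05%, 1.09% and 0.805% of the assigned counts. By mean CPM, 9 of the 10 lay above the 95th percentile of those 15336 genes, and Tubb3 lay at the 79.5th. The smallest count of any of the 10 was the 367 of Tubb3 in replicate 3, or 42.3 CPM with an exact Poisson interval of 38.1 to 46.9 CPM (95%, counting error only), so that counting error was small beside the spread between libraries.

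**Figure D1:**
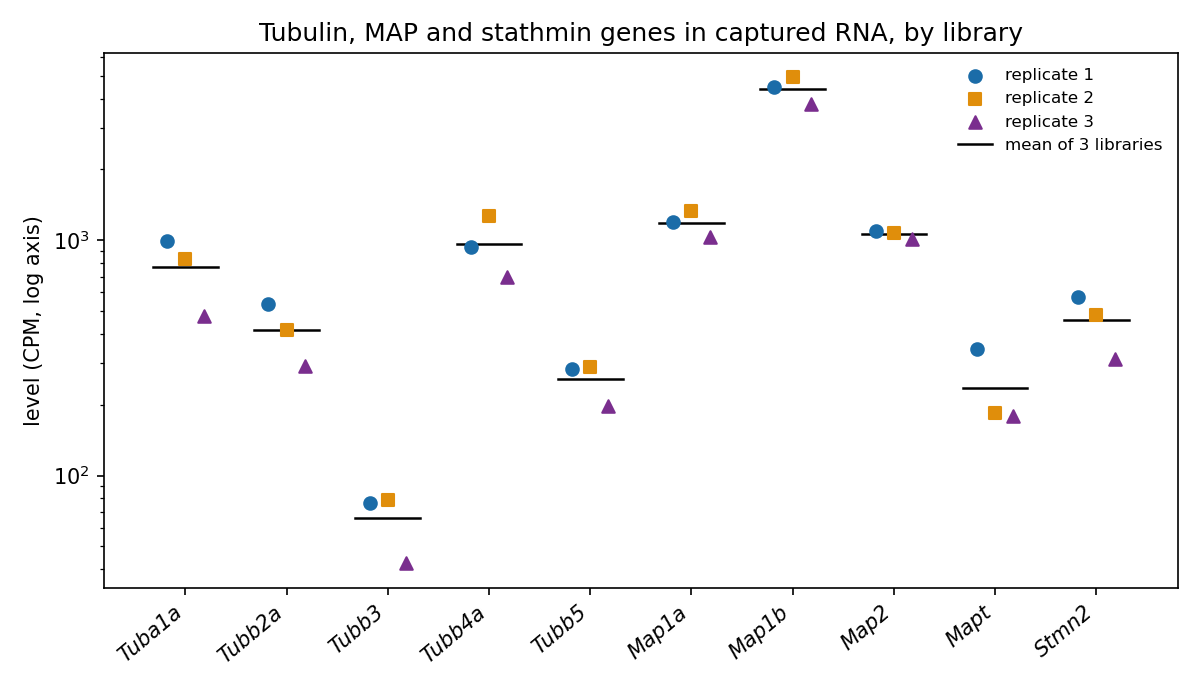
Level of each gene in CPM on a log axis. Points are the 3 libraries and bars their mean. Map1b is the highest at 4405 CPM and Tubb3 the lowest at 65.8 CPM, and replicate 3 is the lowest library for each of the 10 genes.

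Among the 4 beta tubulins of the set, Tubb4a had the highest level and Tubb3 the lowest, in CPM and per kb of exon. Tubb4a, an isotype of neurons and oligodendrocytes, measured 934, 1269 and 701 CPM in replicates 1, 2 and 3, a mean of 968 ± 285 CPM (n = 3). Replicate 2 was the highest. Tubb2a, a major isotype of neurons, measured 536, 417 and 293 CPM, a mean of 415 ± 122 CPM, and here replicate 1 was the highest. Tubb5, an isotype made by most cell types, measured 285, 290 and 197 CPM (257 ± 52.4 CPM), with replicates 1 and 2 close to each other. Tubb3, the isotype used in histology as a marker of neurons, measured 76.2, 78.8 and 42.3 CPM (65.8 ± 20.3 CPM), again with replicates 1 and 2 close to each other. Tubb3 ranked 3144th of all genes by CPM, while Tubb4a ranked 53rd.

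In the GRCm38 assembly Tubb4a (ENSMUSG00000062591.5) lies on chromosome 17, minus strand, from 57080066 to 57087782, with 2228 bases of annotated exon. Tubb2a (ENSMUSG00000058672.7) lies on chromosome 13, minus strand, from 34074274 to 34078007, with 1610 bases. Tubb5 (ENSMUSG00000001525.10) lies on chromosome 17, minus strand, from 35833921 to 35838306, with 3327 bases. Tubb3 (ENSMUSG00000062380.4) lies on chromosome 8, plus strand, from 123411424 to 123422015, with 1868 bases. Their order by CPM and by CPM per kb of exon was the same.

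Levels of different genes were compared per length, as CPM per kb of annotated exon, within each library. Tubb2a exceeded Tubb3 by 2.85 ± 0.22 on the log2 scale (7.19-fold), with 2.998, 2.59 and 2.95 in replicates 1, 2 and 3. Per kb of unshared transcript that difference was 3.84 ± 0.22. Tubb4a exceeded Tubb5 by 2.45 ± 0.21 (5.48-fold), with 2.28, 2.69 and 2.39. Both differences were positive in 3 of 3 libraries and far larger than their spread. A two-sided exact permutation test that flips signs over 3 libraries has 0.25 as its smallest p, and it gave 0.25 for each of the 6 gene pairs compared (adjusted p = 0.25 over the 6, Benjamini-Hochberg).

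As shares of the summed CPM per kb of 7 beta tubulin genes, Tubb4a took 45.5%, 56.9% and 51.4% in replicates 1, 2 and 3. Tubb2a took 36.1%, 25.9% and 29.7%. Tubb5 followed with 9.22 ± 0.481%, Tubb3 with 4.11 ± 0.373%, Tubb4b with 3.77 ± 0.599% and Tubb2b with 0.956 ± 0.305% (n = 3 each). The shares of Tubb4a and Tubb2a moved in opposite directions between replicates 1 and 2, which shares of 1 whole tend to do. The order of Tubb4a and Tubb2a depended on the length used: per kb of transcript that shares no 50-base stretch with another gene, Tubb2a took 43.2 ± 5.76% and Tubb4a 36.5 ± 5.42%. On that scale Tubb3 took 2.93 ± 0.267%.

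Tuba1a dominated the alpha tubulin counts. Tuba1a, an alpha tubulin abundant in neurons, measured 994, 831 and 478 CPM in replicates 1, 2 and 3, a mean of 768 ± 264 CPM, and replicate 3 stood well below the others. It took 80.3%, 76.9% and 76.4% of the summed CPM per kb of 5 alpha tubulin genes. Tuba1b, a near-identical isotype made by most cell types, took 11.2 ± 0.638% and Tuba4a 9.95 ± 1.54%. Tuba1a exceeded Tuba1b by 2.78 ± 0.11 on the log2 scale per kb of exon (6.87-fold), and higher in 3 of 3 libraries (p = 0.25, same exact permutation test), and by 2.16 ± 0.10 per kb of unshared transcript. Tuba1a (ENSMUSG00000072235.6) lies on chromosome 15, minus strand, from 98949837 to 98953703, with 1803 bases of exon. The annotated transcript of Tuba4a shares 48.8% of its 50-base stretches with other genes, among them Stk16, so its count is uncertain. Stretches were matched on either strand, and overlap of neighbouring genes was not set apart from copies elsewhere.

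**Figure D2:**
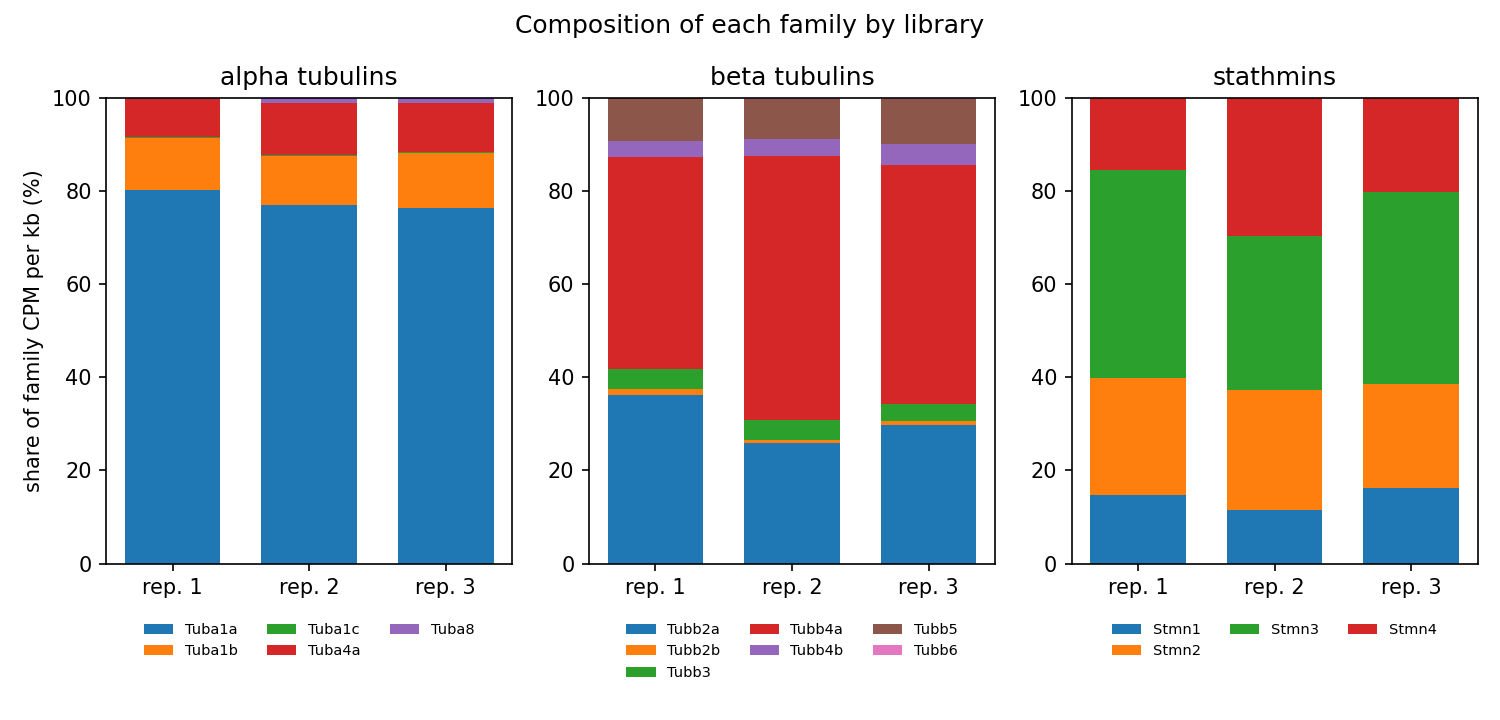
Share of the summed CPM per kb of each family taken by each gene, in percent, with 1 stacked bar per library. Tuba1a fills 76.4% to 80.3% of the alpha tubulin bars, and Tubb4a and Tubb2a together fill most of each beta tubulin bar. Among stathmins Stmn3 takes the most in each library, an order that changes with the length used.

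Map1b, Map1a and Map2 had the 3 highest mean CPM of the set, a scale that favours long messages, and the 3 smallest coefficients of variation between libraries. Map1b, which encodes a MAP prominent in growing axons, measured 4484, 4929 and 3801 CPM in replicates 1, 2 and 3, a mean of 4405 ± 568 CPM that ranked 8th of all genes. Map1a, its relative of mature neurons, measured 1193, 1332 and 1035 CPM, a mean of 1186 ± 148 CPM. Map2, the dendritic MAP, measured 1099.8, 1069 and 1010.2 CPM, a mean of 1059.8 ± 45.6 CPM. With a coefficient of variation of 4.30%, Map2 had the least spread of the 10 genes.

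Mapt measured 344, 185 and 179.96 CPM in replicates 1, 2 and 3, a mean of 236 ± 93.5 CPM. It had the widest relative spread of the 10, a coefficient of variation of 39.6%, and the excess was in replicate 1. The summed astrocyte and oligodendrocyte markers were highest in that library as well, at 2633 and 449 CPM, against 1616 and 258 CPM in replicate 2 and 1623 and 265 CPM in replicate 3. Oligodendrocytes also express Mapt, and the part of these cells in its level was not tested.

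Map1b (ENSMUSG00000052727.6) lies on chromosome 13, minus strand, from 99421446 to 99516540, with 15846 bases of annotated exon. Map1a (ENSMUSG00000027254.13) lies on chromosome 2, plus strand, from 121289600 to 121310832, with 12166 bases. Map2 (ENSMUSG00000015222.17) lies on chromosome 1, plus strand, from 66175273 to 66442583, with 16449 bases. Mapt (ENSMUSG00000018411.17) lies on chromosome 11, plus strand, from 104231390 to 104332090, with 7531 bases. For Map2 the longest single annotated transcript has 6258 bases, far fewer than the union of its exons, so its level per length depends on the length used.

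Map1b and Map1a kept nearly the same ratio in each library. The log2 difference per kb of exon was 1.52, 1.498 and 1.48 in replicates 1, 2 and 3, a mean of 1.501 ± 0.017 (2.83-fold), and higher in 3 of 3 libraries (p = 0.25, same exact permutation test). In CPM the difference was 1.89 ± 0.017. Of the 45 pairs that the 10 genes form, this one had the smallest SD of its log2 difference in CPM, where the median SD was 0.32. The next smallest was that of Stmn2 and Tubb2a, at 0.064, and the widest that of Tubb4a and Mapt, at 0.67. These spreads describe 3 libraries and were not tested.

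Map2 exceeded Mapt per kb of exon by 1.08 ± 0.47 on the log2 scale (2.11-fold), with 0.54, 1.37 and 1.33 in replicates 1, 2 and 3 (p = 0.25, same exact permutation test). Replicate 1, where Mapt was highest, had the smallest difference. In CPM the difference was 2.23 ± 0.48 and per kb of the longest transcript 1.95 ± 0.47. Per kb of unshared principal transcript it was −0.0062 ± 0.480, since the principal Mapt transcript in the annotation has 1362 bases, of which 1293 are coding.

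Stmn2, a neuronal stathmin of growing and regenerating axons, measured 576, 482 and 313 CPM in replicates 1, 2 and 3, a mean of 457 ± 134 CPM, with replicate 3 the lowest. It lies on chromosome 3, plus strand, from 8509360 to 8561606 (ENSMUSG00000027500.10), with 5602 bases of annotated exon. The 3 other stathmin genes were all detected, with Stmn3 at 150.3 ± 49.8, Stmn4 at 136 ± 47.9 and Stmn1, the form made by most dividing cells, at 89.5 ± 23.2 CPM. Stmn2 exceeded Stmn1 by 0.78 ± 0.35 on the log2 scale per kb of exon (1.72-fold), and higher in 3 of 3 libraries (p = 0.25, same exact permutation test), and by 2.32 ± 0.35 in CPM. In shares of stathmin CPM Stmn2 led with 54.4 ± 2.51%, but per kb of exon Stmn3 led with 39.6 ± 5.90% against 24.4 ± 1.86% for Stmn2. Per kb of the longest transcript Stmn2 and Stmn3 took 29.4 ± 2.16% and 29.2 ± 4.69%, so their order was not settled.

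Per kb of exon the 10 genes fell into 3 tiers, with neighbours within a tier not separated beyond their spread, apart from Tuba1a and Map1b. Tubb4a (434 ± 128 CPM per kb), Tuba1a (426 ± 146), Map1b (278 ± 35.8) and Tubb2a (258 ± 75.5) stood at the top. Tuba1a exceeded Map1b by 0.56 ± 0.41 on the log2 scale, while Tubb4a and Tuba1a differed by 0.052 ± 0.388 and Map1b and Tubb2a by 0.14 ± 0.33. A step of 1.36 ± 0.35 separated Tubb2a from Map1a (97.5 ± 12.2 CPM per kb), which was followed by Stmn2 (81.6 ± 23.9), Tubb5 (77.3 ± 15.8) and Map2 (64.4 ± 2.77). A further step of 0.90 ± 0.43 separated Map2 from Tubb3 (35.2 ± 10.9 CPM per kb) and Mapt (31.4 ± 12.4), which differed by 0.17 ± 0.51. Per kb of the longest transcript Map2 moved up to 169 ± 7.28 CPM per kb, between Tubb2a and Stmn2, and Mapt and Tubb3 stayed at the bottom. On that scale Tuba1a and Map1b were not separated (0.13 ± 0.41), Map1b exceeded Tubb2a by 0.57 ± 0.33, and the step below Tubb2a, then to Map2, was 0.56 ± 0.37, so the tiers above are those of exon length.

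**Figure D3:**
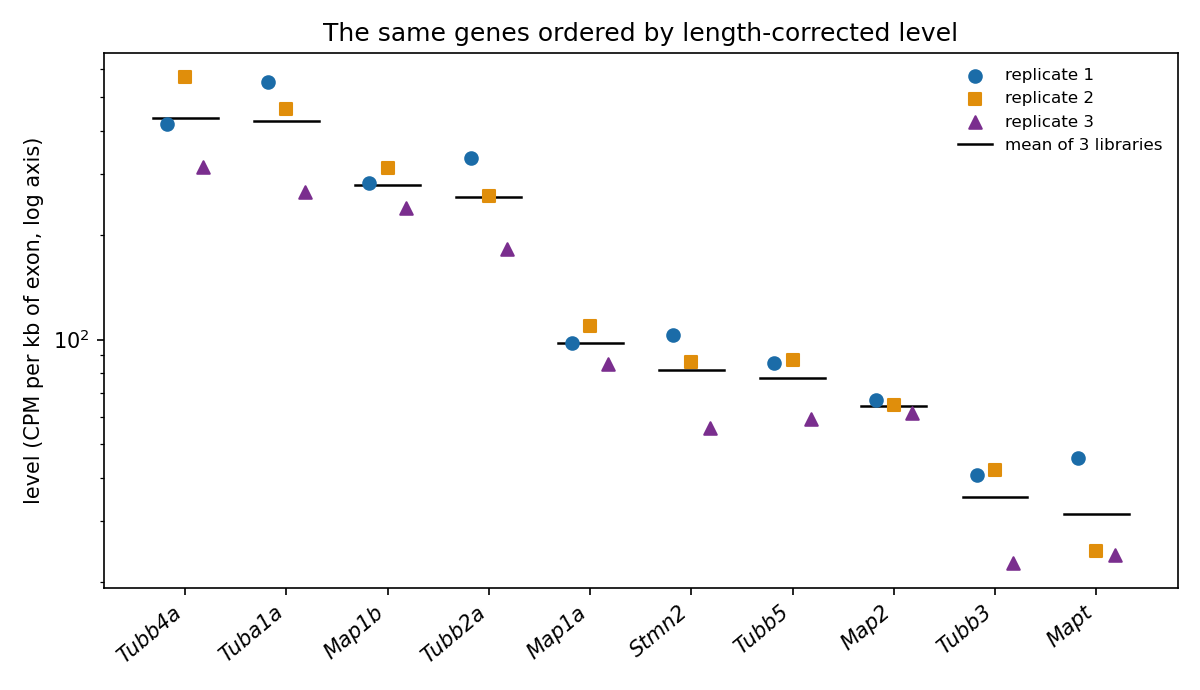
Level of each gene in CPM per kb of annotated exon on a log axis, ordered by the mean. Points are libraries and bars means. Tubb4a, Tuba1a, Map1b and Tubb2a lie at 258 CPM per kb or more, and Tubb3 and Mapt at 35.2 and 31.4 CPM per kb.

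None of the 10 genes was called as varying between the libraries, and few genes of any kind were. In the edgeR goodness-of-fit test over 15336 genes, 0 of the 10 passed an adjusted p of 0.05, and 0 of 10 had an unadjusted p under 0.05, beside 0.209% and 7.82% of all genes tested. DESeq2's test for dispersion outliers flagged 0 of them too, and 21 of the 15336 genes. With so few genes called, 0 of 10 does not set these 10 genes apart. The smallest adjusted p was that of Tuba1a (edgeR, adjusted p = 0.905), and Map2, the steadiest, had 0.998. The test can show large variation only, so this does not show that the levels were equal.

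Yet the direction was shared: replicate 3 had the lowest CPM for 10 of the 10 genes, where it was the lowest for 27.5% of all genes tested and for 48.3% of those averaging at least 50 CPM. Among protein-coding genes averaging at least 200 CPM, as 9 of the 10 do, the share lowest in replicate 3 was 84.2% for 1 to 2 kb of exon, 79.1% for 2 to 4 kb, 65.3% for 4 to 8 kb and 51.6% over 8 kb, so the 10 genes shared this direction with most abundant genes. The level in replicate 3 over the mean of replicates 1 and 2, on the log2(CPM + 1) scale, was 0.527 for Tuba1a, 0.552 for Tubb3, 0.594 for Stmn2, 0.620 for Tubb2a and 0.645 for Tubb4a. It was 0.686 for Tubb5, 0.714 for Mapt, 0.809 for Map1b, 0.821 for Map1a and 0.932 for Map2. The short tubulin messages thus lay further below the other libraries than the long MAP messages. Replicate 3 was also the shallowest library. Protein-coding genes took 75.2% of its counts, against 81.7% in replicate 1 and 84.0% in replicate 2. Entries that HTSeq placed in no feature made up 45.3% in replicate 3, against 31.4% in replicate 1 and 25.6% in replicate 2, and entries with more than 1 alignment 16.5%, against 32.7% and 24.3%. With TMM scaling it was still the lowest for 10 of 10 genes (32.2% of all genes tested) and with DESeq2 scaling likewise (32.6%). With protein-coding counts alone as the total it was the lowest for 8 of 10 (22.4%), and Map2 and Mapt were then lowest in replicate 2. The median log2 difference of replicate 3 from the mean of the others was −0.59 in CPM, −0.72 with TMM scaling and −0.45 with protein-coding totals for the 10 genes. Over all genes tested it was 0.14, 0.028 and 0.28. Over the 4035 genes averaging at least 50 CPM, closer to the 10 in level, it was −0.21, −0.34 and −0.075.

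The same gradient with length was present across other genes. Among protein-coding genes averaging at least 50 CPM, the median log2 difference of replicate 3 from the mean of the others was −0.61 for 181 genes with 1 to 2 kb of exon, −0.42 for 691 with 2 to 4 kb, −0.22 for 1561 with 4 to 8 kb and −0.0081 for 1373 over 8 kb. All 10 genes lay below the median of the other genes of their length class. Set against the other genes averaging at least 200 CPM, 7 of 10 did, with Tubb3 among the 7 although it averaged 65.8 CPM. With members of the set counted in, the medians of those classes were −0.69, −0.63, −0.45 and −0.19 in the same order of length. The parts of message length, depth, the share of non-coding RNA and cell make-up in this difference cannot be told apart with 3 libraries. Without replicate 3 the median level of the 10 genes was 706 CPM, against 602 CPM with it.

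**Figure D4:**
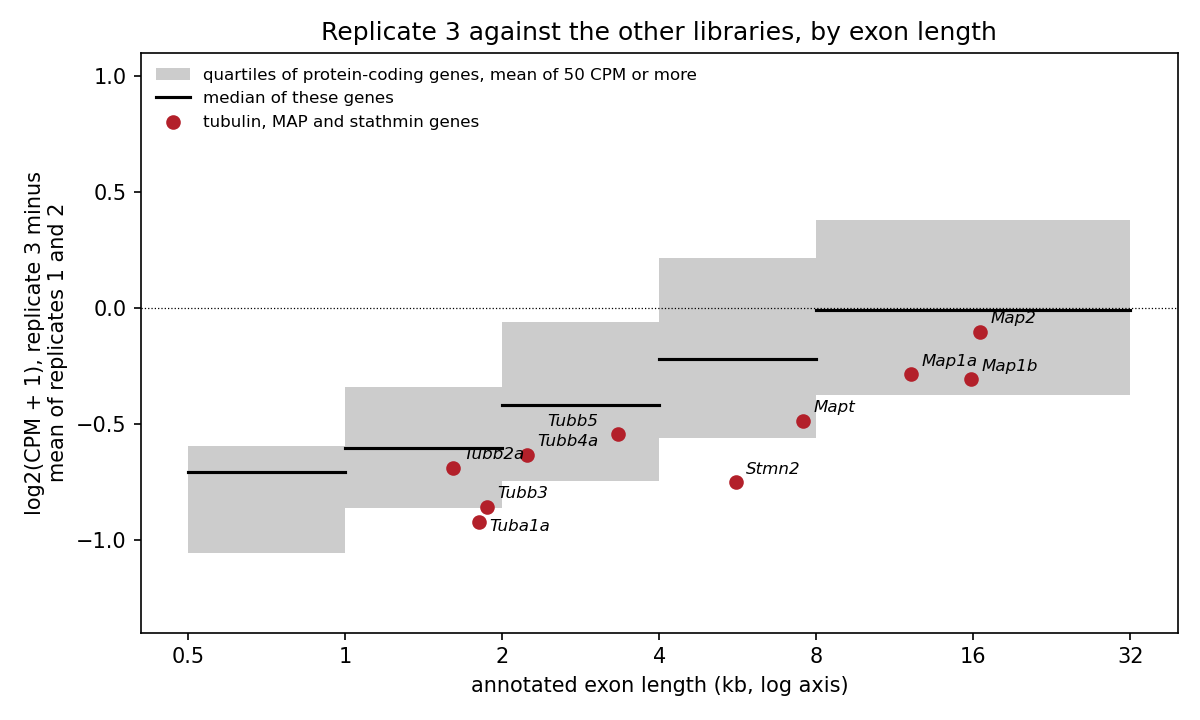
Log2(CPM + 1) in replicate 3 minus the mean of replicates 1 and 2, against annotated exon length on a log axis. Points are the 10 genes, grey areas the quartiles and lines the medians of protein-coding genes averaging at least 50 CPM, by length class. All 10 points are below 0, from −0.92 for Tuba1a to −0.10 for Map2, and below the median line of their class.

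The genes nearest to the mean pattern of the 10, by root-mean-square distance of centred log2(CPM + 1) over 3 libraries, were Rabep1 (0.0020), Frs2 (0.0086), Tspan7 (0.0095), Med14 (0.011) and Eef1b2 (0.012). Rabep1, for instance, measured 233, 218 and 153 CPM in replicates 1, 2 and 3. Of 4025 candidate genes 75 were nearer to that pattern than any of the 10 genes themselves, and the median distance of a candidate was 0.327, close to the 0.326 of the farthest of the 10.

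Of the wider microtubule machinery most genes were detected and none was called as varying. Of the 11 other alpha and beta tubulins 6 were detected, and their median was 3.26 ± 0.618 CPM. Highest in CPM were Tuba4a (197 ± 58.3 CPM), Tuba1b (113 ± 32.7) and Tubb4b (64.9 ± 7.98), a broadly made isotype. Tuba3b, Tubal3 and Tubb1, the last the isotype of platelets, had 0 counts in all libraries. Of 15 gamma tubulin and nucleation genes 12 were detected, and the median of 16.9 ± 5.31 CPM was close to that of all genes tested. Highest in CPM were the gamma tubulin complex genes Tubgcp3 (54.9 ± 2.65 CPM) and Tubgcp4 (38.4 ± 14.8) and the augmin gene Haus2 (38.2 ± 18.3).

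Genes of lattice and end-binding proteins had list medians above the 17.7 CPM of all genes tested. Of 17 other lattice MAPs 15 were detected and 1 symbol was not matched, and the median was 97.0 ± 20.4 CPM. Dclk1, a doublecortin-like kinase, measured 814, 1316 and 748 CPM in replicates 1, 2 and 3. Map4, the MAP of most non-neuronal cells, measured 704, 674 and 351 CPM, and Tppp, a tubulin polymerisation protein of oligodendrocytes, 397 ± 89.9 CPM. All 20 plus-end and minus-end genes were detected, and their median was 202 ± 14.2 CPM. Clip3 measured 1074, 1148 and 623 CPM, the cytoskeletal linker Macf1 752, 641 and 1028 CPM, and Apc, which binds microtubule plus ends, 710.2 ± 39.2 CPM. In CPM Macf1 and Apc, with 31402 and 16116 bases of exon, were highest in replicate 3. With DESeq2 scaling Apc was instead lowest in replicate 3. Map4 and Dclk1, also long with 15143 and 15296 bases, were lowest there, as were the 10 genes.

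Genes listed for the severing, folding and modification of tubulin were mostly detected. Severing enzymes were detected for 6 of 7 genes (list median 20.6 ± 2.34 CPM), led by Katnal1 (143 ± 37.2 CPM), the spastin gene Spast (72.03 ± 16.4) and Fign (42.8 ± 12.1). Tubulin-modifying enzymes were detected for 21 of 24 with 1 symbol unmatched (31.3 ± 8.50 CPM). Agtpbp1, which trims polyglutamate chains from tubulin tails, measured 358 ± 55.6 CPM, Ttll7, which adds glutamates to beta tubulin, 200.2 ± 66.8, and Nicn1, a subunit of the polyglutamylase complex, 110.4 ± 44.5. All 13 genes of the folding list were detected (29.8 ± 4.65 CPM). The list also holds Ttc5, the autoregulation factor described above, at 84.7 ± 29.5 CPM. The prefoldin subunits Pfdn5 and Pfdn2 measured 67.2 ± 24.6 and 57.98 ± 23.3 CPM. All 17 kinase and phosphatase genes that act on tau and other MAPs were detected (115 ± 14.3 CPM). The tau kinase gene Gsk3b measured 746, 778 and 411 CPM, and the Cdk5 activators Cdk5r2 and Cdk5r1 measured 274 ± 121 and 233 ± 49.8 CPM. In the edgeR test 0 of these genes passed, and 0.209% of all genes passed. The smallest adjusted p in that test was 0.650 among the genes above, for Cdk5r2. Over the whole lists it was 0.348, for the folding cofactor gene Tbca.

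Markers of immature neurons bear on Tubb3, Map1b and Stmn2, which are also used as markers of young neurons. Of 10 such genes 7 were detected, and their median was 6.70 ± 2.08 CPM. Sox11 measured 233, 87.0 and 137 CPM in replicates 1, 2 and 3, the microtubule-binding doublecortin gene Dcx 53.9, 41.5 and 53.4 CPM and Neurod1 36.2, 43.9 and 68.1 CPM. Eomes, Igfbpl1 and Draxin stayed under 1 CPM in each library. Summed over the list the level was 361, 199 and 304 CPM in replicates 1, 2 and 3. Stmn2 was also highest in replicate 1, and Map1b and Tubb3 were highest in replicate 2, where the sum was lowest. Sox11 made the largest part of the sum in each library, while Neurod1 was highest in replicate 3, so the sum does not stand for each gene. The neuronal markers Snap25, Syn1 and Syt1 measured 9016 ± 3618, 954 ± 290 and 552 ± 59.8 CPM, all lowest in replicate 3, as were 10 of the 12 neuronal markers.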

How the data were processed

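The 3 immunopurified libraries were analysed from the count files the authors deposited, which give whole-number read counts per gene symbol, with no scaling. Per the submitters' processing notes, STAR 2.0.0e was used for alignment, HTSeq for counting and mm10 as the genome. No source used here gives the annotation, strand setting, read length or kit, so overlapping and antisense genes cannot be told apart. HTSeq's summary classes stayed out of totals. Of all entries, 16.5% to 32.7% had more than 1 alignment.

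CPM used the total of 32531 genes. Exon lengths and coding sequences came from GENCODE M21 (GRCm38, the assembly mm10 names), matched by symbol, with lengths for 88.8% of the genes tested. Log2 values used a pseudocount of 1, which understates differences of low genes. The test of variation ran in edgeR 4.0.16 under R 4.3.3 (TMM, intercept only, trended dispersion, chi-square goodness of fit on 2 degrees of freedom, Benjamini-Hochberg over 15336 genes averaging at least 1 CPM), after a check on simulated data. DESeq2 1.42.0 served as an alternative. Other steps used Python 3.11.15, pandas 2.3.3, numpy 2.4.6, SciPy 1.17.1, Biopython 1.88 and matplotlib 3.10.9. The genes, lists and tests were chosen with earlier results of these data known. Named genes are the 10 members, the genes of the 6 contrasts, the 3 with the highest mean CPM of each list, any called as varying, and the 5 nearest in pattern. Genes named as listed at 0 or under 1 CPM, Tbca, and the sequences shown, were chosen after their values were seen.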

Additional observations from a re-analysis of the deposited data

How the results depend on the processing

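Of the 6 gene-pair differences, all kept their sign in every alternative (no length correction, longest transcript, pseudocount 0.1, unshared transcript, and each replicate left out) apart from Map2 minus Mapt, which was −0.0062 per kb of unshared principal transcript, where the principal Mapt transcript is short. With 1 replicate left out, the differences ranged from 0.93 to 1.35 for Map2 minus Mapt, 1.49 to 1.51 for Map1b minus Map1a, 2.77 to 2.97 for Tubb2a minus Tubb3, 2.33 to 2.54 for Tubb4a minus Tubb5, 2.75 to 2.84 for Tuba1a minus Tuba1b and 0.60 to 0.95 for Stmn2 minus Stmn1. The number of genes called as varying was 32, 24 to 39 with other scalings or filters on low counts, 780 with a common dispersion, 21 as DESeq2 dispersion outliers and 5 to 22 with 1 replicate left out (8 without replicate 1, 5 without replicate 2); the cause was not tested. The number of the 10 genes among them was 0 under each of these. The median level of the 10 genes was 602 CPM, their mean 982 CPM, pulled up by Map1b, and the median was 608 to 744 CPM with other scalings or totals and 526 to 706 CPM with 1 replicate left out. The alternatives with unshared transcript or protein-coding totals, and all scalings of the count of genes lowest in replicate 3, were chosen after seeing the data. No comparison between groups, paired or not, was possible because there is only 1 group. The 6 gene pairs were compared within each library.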

Other observations

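Minor isotypes varied in which library was lowest. Tubb6, a minor beta tubulin, measured 0.108 CPM in replicate 1, from 2 counts and under the floor of 0.162 CPM there, and 3.89 and 2.65 CPM in replicates 2 and 3. Tuba8, an alpha tubulin with a divergent sequence, measured 3.62, 13.97 and 8.88 CPM in replicates 1, 2 and 3, so that it too was lowest in replicate 1, unlike the 10 genes of the report. Neither passed the edgeR test of variation (adjusted p = 0.877 for Tubb6 and 0.962 for Tuba8). Tubb2b, which is abundant in young neurons, measured 27.3, 15.9 and 12.5 CPM, and it has 27.7% of its 100-base stretches in common with transcripts of other genes. These genes were chosen after their values were seen.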
